A study of Mus musculus with 27 samples.

Results

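Genes of the distal part of mouse chromosome 1 were compared between whole brains of DBA and C57 mice. The set is a list of 41 genes of an interval in which these strains carry different haplotypes, taken by gene symbol or synonym from the annotation of 1 array platform. Of the 41 genes, 34 had a probe set (40 probe sets in all) among the 8251 named genes of the platform, and 7 had none in the annotation used: Kcnj10, Ncstn, Vangl2, Slamf1, Kmo, Nos1ap and Lmx1a. Of the 34, 28 genes (31 probe sets) were bright enough to be tested.

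The DBA group was 4 untreated DBA/2J mice of unstated sex, and the C57 group was 5 untreated males that the labels write as C57BL/2. All were 10 weeks old, and each gave 1 array of labelled cRNA made from 5 ug of whole-brain RNA. Both strains are inbred, so each group stands for 1 genotype, and whole brain mixes all regions and cell types. A second platform, whose arrays carry a letter in their titles, was not used here.

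Distal chromosome 1 is a region to which crosses of these strains have repeatedly mapped behavioural traits, among them alcohol and sedative withdrawal, seizure threshold and locomotor activity. It holds genes of very different function side by side: potassium channels, regulators of G protein signalling (RGS proteins), vesicle coat and peroxisome proteins, redox enzymes, immune receptors and plasma proteins. A difference in RNA level between inbred strains can be inherited with the gene itself or be set elsewhere in the genome. A comparison of 2 strains does not separate these. An intensity also depends on how well a strain's sequence matches the probes of the array. Probe sequences were not at hand, so the part of this in the differences below was not tested.

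Intensities are the authors' values on a linear scale, and every array had been scaled to the same trimmed mean of 500.3. The array medians ran from 167.6 to 188.4 in DBA and from 159.6 to 197.8 in C57, and pairs of arrays correlated at 0.944 to 0.969 on the log2 scale. That correlation is over probe sets within arrays, and probe sets are no replicates. Differences below are log2 intensity in DBA minus C57 with the standard error of limma's fit over 9316 probe sets, and a probe set was called at a Benjamini-Hochberg adjusted p under 0.05 in that fit. So few animals leave each difference imprecise. Each standard error and p-value uses a variance that limma moves from the set's own spread between animals towards that typical of all tested sets. They therefore do not measure the spread of these animals alone. At sets with very even animals the standard error is raised. For Fh1 it was 0.08, with log2 SDs between animals of 0.04 in DBA and 0.05 in C57. For Copa it was 0.09, with SDs of 0.06 in both strains. The neuronal markers Snap25 (15350 to 21136 in DBA, 14793 to 18630 in C57) and Gad1 (5913 to 7222 in DBA, 5640 to 7822 in C57) were bright in every brain. The Xist probe set had a mean below the brightness limit of 35.4 used for testing, at 16.4 to 24.8 in DBA and 19.6 to 36.0 in C57, and the Y-linked Eif2s3y set gave 296 to 338 in DBA and 249 to 384 in C57. For Gapdh, the array has control sets at both ends of the transcript, whose log2 ratio (3' over 5') follows RNA integrity and labelling. It was -0.44 to -0.32 in DBA and -0.29 to -0.19 in C57 (exact 2-sided permutation p = 0.0159, or 0.0795 adjusted over 5 control genes). The ratios of the other 4 control genes overlapped between strains, but the mean ratio of all 5 was lower in DBA, by -0.32 to -0.12. The largest difference, -0.32, was that of pyruvate carboxylase (exact 2-sided permutation p = 0.0556, or 0.139 adjusted). The part of these ratios in the differences below was not tested.

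Of the 28 genes tested, 4 differed between the strains: Kcnj9 and Mgst3 were higher in DBA, and Pex19 and Copa were lower. By probe set these were 4 of 31 (12.9%), against 2.5% of all 9316 tested, with 2 higher (0.891% of all tested were called higher) and 2 lower (1.61%). By gene, 2.8% of all named genes had a called probe set. At an unadjusted p under 0.05, 5 sets were higher and 5 lower, 10 of 31, against 12.2% of all tested. At 7 of 31 sets the DBA and C57 animals did not overlap, against 6.45% of all tested. The median difference over the 31 sets was 0.09, with 21 above 0 and 10 below, against a median of 0.01 over all tested sets. The median size of a difference, whatever its sign, was 0.17 for the members and 0.15 for all tested sets, and the median SD between animals of a strain was 0.22 for the members and 0.24 for all tested sets. The genes were listed with earlier results of these animals known, so these shares describe the list and were not tested. The count of called members moved with the animals used: without DBA animal 1, 2 or 3 or C57 animal 2, 3 or 4 it was 2.

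**Figure D1:**
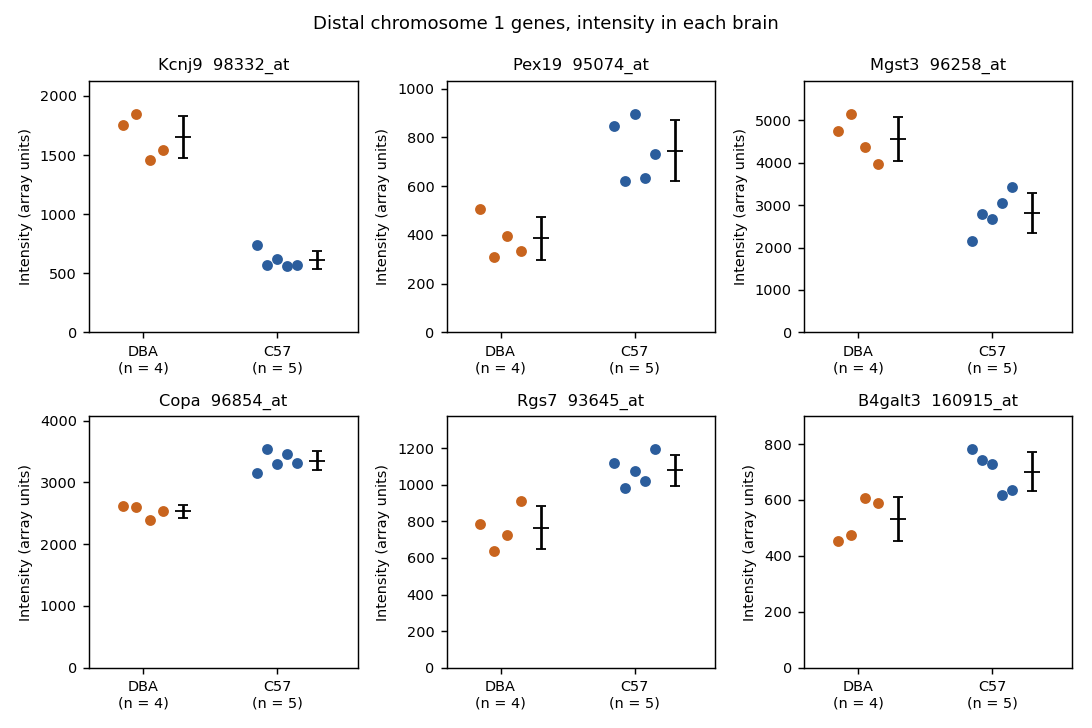
Intensity in array units (y axis, from 0) in each DBA (orange, n = 4) and C57 (blue, n = 5) brain for 6 probe sets, with the mean and SD beside the points. The panels were chosen as the 6 sets with the smallest limma p among member sets at which the strains do not overlap. Kcnj9, Mgst3, Pex19 and Copa were called, and Rgs7 and B4galt3 were not (adjusted p of 0.0744 and 0.190).

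Kcnj9 encodes GIRK3, a subunit of the potassium channels that open when a G protein-coupled receptor releases its beta-gamma subunits, and that quiet the neuron. Its probe set 98332_at read 1756.5, 1848.5, 1461.7 and 1540.4 in the DBA animals, against 737.9, 568.2, 620.3, 561.1 and 568.4 in the C57 animals. The lowest DBA brain lay well above the highest C57 brain, and each strain varied little (coefficient of variation 11.0% in DBA and 12.2% in C57). The set was 2.71-fold higher in DBA (1.44 ± 0.12, 95% interval 1.16 to 1.71, limma adjusted p = 0.000147), the member with the smallest p and rank 29 among all tested sets. Its second set, 161799_r_at, read 185.2, 195.8, 337.9 and 115.6 in DBA, against 96.7, 111.2, 145.0, 127.4 and 143.4 in C57. Here the strains overlapped, because DBA animal 4 lay within the C57 range, and the difference of 0.65 ± 0.27 was not called (limma adjusted p = 0.358). The 2 sets also ordered the DBA animals differently: animal 3 was the lowest by 98332_at and the highest by 161799_r_at. A suffix of r_at marks a set for which the array's maker had to relax its rules of probe choice.

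Mgst3 encodes a microsomal glutathione S-transferase that also reduces lipid peroxides. Probe set 96258_at read 4750.9, 5156.4, 4364.3 and 3968.1 in DBA, against 2151.4, 2804.0, 2684.1, 3043.6 and 3422.1 in C57. The groups did not overlap, and the set was 1.63-fold higher in DBA (0.70 ± 0.15, limma adjusted p = 0.0346). The call was lost without DBA animal 1, 2 or 3 or C57 animal 2, 3 or 4 (limma adjusted p of 0.107, 0.121, 0.0817, 0.0830, 0.0860 and 0.0618), with arrays centred on their medians (0.148) and with no brightness filter (0.0708). The difference itself ran from 0.61 to 0.78 over these and the other alternatives. A second Mgst3 set, 99576_at, was dim in all brains, at 0.7 to 13.1 in DBA and 2.8 to 10.9 in C57, and was not tested.

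Copa and Pex19 lie next to each other on the chromosome and were both lower in DBA. Pex19 encodes the carrier that brings newly made membrane proteins to the peroxisome. Its set 95074_at read 504.9, 307.8, 396.0 and 335.6 in DBA, against 846.6, 619.6, 896.7, 633.2 and 731.4 in C57. Every DBA brain was below every C57 brain, and the level was 1.94-fold lower in DBA (-0.96 ± 0.18, 95% interval -1.35 to -0.57, limma adjusted p = 0.0161). The Pex19 call was just missed without DBA animal 2 or 4 (limma adjusted p of 0.0567 and 0.0531). The other Pex19 set, 95073_at, was at 2.0 to 9.1 in DBA and 3.9 to 14.6 in C57 and was not tested.

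Copa encodes the alpha subunit of coatomer, the COPI coat of vesicles that run from the Golgi back to the endoplasmic reticulum. Set 96854_at read 2622.4, 2594.4, 2387.4 and 2538.3 in DBA, against 3158.2, 3536.5, 3298.0, 3456.8 and 3311.6 in C57. Copa was among the most even members within each strain (coefficient of variation 4.13% in DBA and 4.40% in C57), and the strains were apart although the fold was small, 1.32-fold lower in DBA (-0.40 ± 0.09, limma adjusted p = 0.0434). The adjusted p rose above 0.05 when any 1 animal was left out (without DBA animal 1, 2, 3 or 4: 0.0938, 0.113, 0.110 and 0.0906; without C57 animal 1, 2, 3, 4 or 5: 0.0580, 0.119, 0.0892, 0.108 and 0.101), with median centring (0.199) and with no brightness filter (0.0817). The difference ran from -0.42 to -0.37 in all of these.

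The RefSeq promoter windows of the called genes run from 250 bases before to 50 after the gene start in GRCm38.p6. They are shown because these are the members whose intensity differed, so that a reader can set them beside the levels. They are the C57BL/6J reference sequence, read 5' to 3' on the strand of the gene, and hold no DBA allele. Capitals mark matches on either strand to CACGTG (the E-box bound by USF1, itself encoded in the interval), CAGCTG (an E-box of NHLH1, also encoded there), GGGCGG (GC box), CCAAT and TATAAA. Pex19 is named only. The windows are chr1:172329273-172329572 on the minus strand for Kcnj9, chr1:167393792-167394091 on the minus strand for Mgst3 and chr1:172082279-172082578 on the plus strand for Copa.
Kcnj9: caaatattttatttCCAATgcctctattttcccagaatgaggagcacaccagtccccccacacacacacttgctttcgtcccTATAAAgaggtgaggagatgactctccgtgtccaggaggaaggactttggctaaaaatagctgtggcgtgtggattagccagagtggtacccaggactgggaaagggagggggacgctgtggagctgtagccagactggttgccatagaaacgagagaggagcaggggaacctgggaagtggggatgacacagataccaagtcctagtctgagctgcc
Mgst3: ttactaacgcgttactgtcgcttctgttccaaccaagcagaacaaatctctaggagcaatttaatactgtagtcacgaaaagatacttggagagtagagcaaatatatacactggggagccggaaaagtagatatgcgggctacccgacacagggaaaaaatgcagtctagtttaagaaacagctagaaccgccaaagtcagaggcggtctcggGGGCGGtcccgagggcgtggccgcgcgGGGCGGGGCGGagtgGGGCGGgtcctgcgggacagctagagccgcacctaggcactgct
Copa: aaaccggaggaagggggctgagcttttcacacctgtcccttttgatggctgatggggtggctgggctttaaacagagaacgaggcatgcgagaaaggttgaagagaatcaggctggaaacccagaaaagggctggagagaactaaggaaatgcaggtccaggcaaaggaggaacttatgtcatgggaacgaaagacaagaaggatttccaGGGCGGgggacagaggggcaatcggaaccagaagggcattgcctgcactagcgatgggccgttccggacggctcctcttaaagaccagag
The windows differ in kind. That of Kcnj9 has 1 CCAAT and 1 TATAAA match, no GC box and 5 CpG dinucleotides. That of Mgst3 has 4 GC boxes, 2 of which share bases, and 21 CpG dinucleotides. That of Copa has 1 GC box and 10 CpG dinucleotides. None of the 3 holds CACGTG or CAGCTG. Over the 37 members with a window (the first listed for each gene), CACGTG was found in 1, Rgs7 (2.7%, against 7.24% of 27025 genes in the table), CAGCTG in 5 (13.5%, against 16.1%), GGGCGG in 17 (45.9%, against 35.9%), CCAAT in 14 (37.8%, against 37.9%) and TATAAA in 5 (13.5%, against 14.2%). These are matches of letters in a short window and describe no binding.

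The members were next followed by role. The RGS genes encode proteins that shorten G protein signals by speeding GTP hydrolysis on the alpha subunit. Rgs7, a brain RGS protein that works with the Gnb5 subunit on the same receptors that open GIRK channels, read 787.3, 635.7, 723.1 and 912.5 in DBA (93645_at), against 1119.7, 984.2, 1072.0, 1020.2 and 1193.6 in C57. The strains did not overlap, but the difference of -0.50 ± 0.12 did not pass (limma adjusted p = 0.0744). Rgs7 was called in 3 of 17 alternative fits, among them that without DBA animal 4, the highest of its group (limma adjusted p = 0.0355). It was not called in the other 14, and over all 17 the limma adjusted p ran from 0.0273 to 0.375.

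Rgs4, which acts on Gi and Gq proteins in cortex and striatum, read 694.2, 904.7, 850.3 and 899.9 in DBA, against 1227.3, 755.9, 788.2, 703.7 and 726.4 in C57. C57 animal 1 stood above all other brains. DBA animals 2, 3 and 4 lay above the other C57 animals, and DBA animal 1 lay below them. With all animals the difference was 0.02 ± 0.18 (95% interval -0.37 to 0.41). Without C57 animal 1 it was 0.16 and was not called either (limma adjusted p = 0.694). Rgs5, a marker of pericytes on brain capillaries and the direct neighbour of Rgs4, had 2 sets. Set 103294_at read 749.0, 802.0, 573.2 and 624.4 in DBA, against 625.2, 469.8, 514.3, 547.3 and 489.8 in C57, and differed by 0.37 ± 0.13 (limma adjusted p = 0.269). Set 96180_at read 462.5, 293.5, 332.7 and 426.0 in DBA, against 465.4, 428.1, 391.1, 246.1 and 356.4 in C57, and differed by 0.01 ± 0.21. Neither Rgs5 set was called, and the strains overlapped at both.

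**Figure D2:**
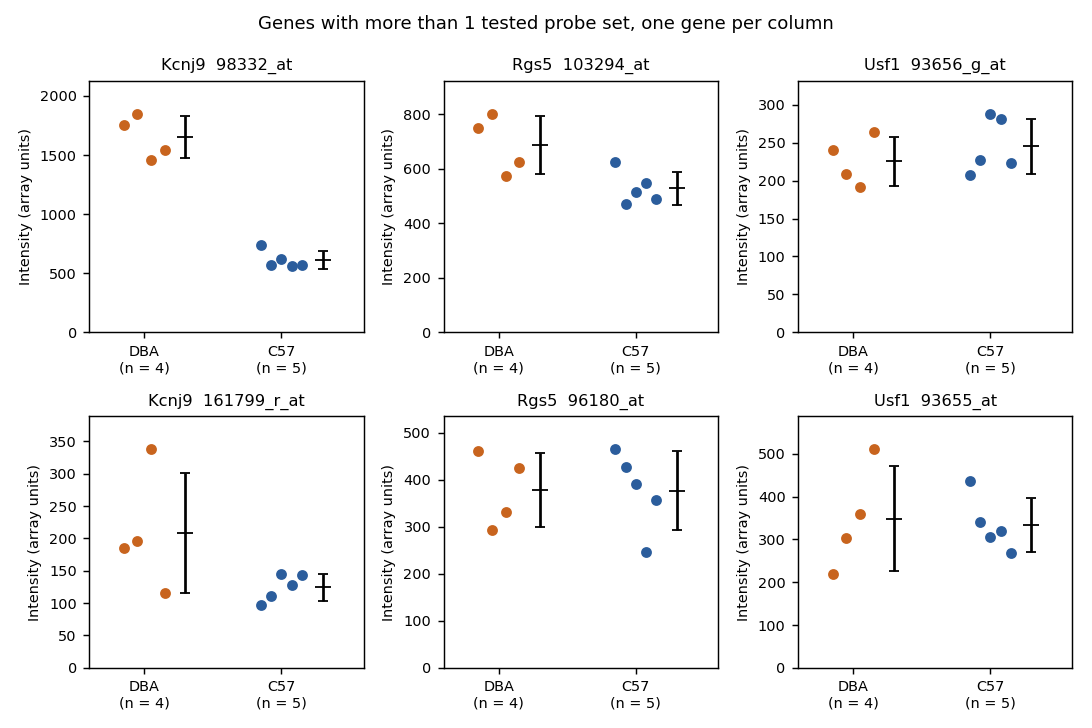
Intensity in array units (y axis, from 0) of the 2 tested probe sets of Kcnj9, Rgs5 and Usf1, one gene per column, in each DBA (orange, n = 4) and C57 (blue, n = 5) brain with mean and SD. The strains are apart only in the upper Kcnj9 panel, and levels of different panels are not comparable.

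Among genes of protein handling, B4galt3, a Golgi galactosyltransferase, read 453.4, 473.2, 607.3 and 589.8 in DBA, against 781.5, 744.0, 729.2, 617.4 and 636.0 in C57. The groups were separate by a narrow gap, and the difference of -0.41 ± 0.13 was not called (limma adjusted p = 0.190). Atf6, the membrane-bound sensor that carries the unfolded protein signal from the endoplasmic reticulum to the nucleus, read 376.3, 339.2, 371.2 and 370.1 in DBA, against 380.6, 431.3, 375.0, 341.7 and 340.4 in C57. These levels overlapped and were close to each other (-0.03 ± 0.10, 95% interval -0.26 to 0.20). Pfdn2, a subunit of the prefoldin chaperone, differed by 0.14 ± 0.13, Uap1, which makes UDP-N-acetylglucosamine, by -0.11 ± 0.25, Usp21, a deubiquitinase, by 0.13 ± 0.14, and Tmco1, a membrane protein of the endoplasmic reticulum, by 0.10 ± 0.15. Dusp12, an atypical phosphatase, read 233.5, 264.3, 334.6 and 334.7 in DBA, against 244.1, 214.9, 267.5, 208.6 and 207.8 in C57, which overlapped (0.34 ± 0.14, limma adjusted p = 0.364).

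Among metabolic genes, Fh1, the fumarase of the citric acid cycle, read 1737.6, 1855.1, 1772.4 and 1759.3 in DBA, against 1601.7, 1733.4, 1666.0, 1716.8 and 1655.2 in C57. All DBA brains were above all C57 brains, yet the difference was small, 0.09 ± 0.08 (95% interval -0.10 to 0.28, limma adjusted p = 0.768). Its coefficient of variation was 2.88% in DBA and 3.13% in C57, the smallest in each strain among the tested members. Uck2, which phosphorylates uridine and cytidine, differed by 0.17 ± 0.10, and Nit1, an amidase that clears a damaged form of glutathione, by 0.28 ± 0.14 (limma adjusted p of 0.569 and 0.478).

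Pea15a and Dedd share a death effector domain. Pea15a, an astrocyte-rich phosphoprotein that holds the kinase ERK in the cytoplasm, read 2661.5, 2818.3, 2431.4 and 2149.7 in DBA, against 1859.2, 1727.5, 1677.2, 2242.5 and 2542.3 in C57. C57 animals 4 and 5 reached into the DBA range, and the difference of 0.34 ± 0.15 was not called (limma adjusted p = 0.412). Dedd, an apoptosis-related protein of the nucleolus, read 124.2, 112.8, 148.9 and 124.2 in DBA, against 160.4, 125.6, 169.5, 131.2 and 125.6 in C57, which overlapped (-0.16 ± 0.13).

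Of the transcription factors, Usf1, a basic helix-loop-helix protein that binds E-boxes, had 2 sets. Set 93655_at read 219.0, 303.1, 359.5 and 511.1 in DBA, against 437.4, 340.7, 306.7, 319.3 and 267.3 in C57 (0.01 ± 0.23). Set 93656_g_at read 239.7, 208.4, 191.2 and 263.7 in DBA, against 207.8, 227.5, 288.0, 280.7 and 222.8 in C57 (-0.12 ± 0.14). The strains overlapped at both, and the DBA animals spread more at the first. Rxrg, a retinoid X receptor prominent in striatum, read 46.7, 154.5, 67.0 and 63.7 in DBA, against 139.6, 121.6, 97.3, 150.0 and 115.3 in C57. DBA animal 2 alone was as high as the C57 brains, and with it the difference of -0.73 ± 0.30 was not called (limma adjusted p = 0.366). Without it the difference was -1.08 (limma adjusted p = 0.0187), the only call in 16 alternative fits. Nhlh1, a neuronal helix-loop-helix protein of development, differed by -0.18 ± 0.31.

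The genes of the contractile, adhesion and matrix group did not pass. Casq1, the calcium store protein of skeletal muscle, differed by 0.04 ± 0.19, Tagln2, an actin-binding transgelin, by 0.08 ± 0.14, F11r, a tight junction protein, by 0.22 ± 0.17, and the collagen receptor Ddr2 by 0.12 ± 0.19. Of all 27 member sets that were not called, 17 had a difference between -0.2 and 0.2.

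The immune receptors and plasma proteins of the interval were dim in brain. Fcgr3, the activating receptor for IgG on microglia and macrophages, was the 1 immune receptor bright enough to be tested, at 46.5 to 85.3 in DBA and 38.4 to 82.5 in C57 (0.13 ± 0.26). Below the brightness limit were Fcgr2b, the inhibitory IgG receptor (20.5 to 53.9 in DBA, 27.6 to 48.2 in C57), and the lymphocyte proteins Cd48 (14.2 to 58.5 in DBA, 16.2 to 42.2 in C57) and Ly9 (17.0 to 56.2 in DBA, 9.1 to 95.0 in C57). The liver proteins Crp (5.7 to 29.8 in DBA, 13.0 to 44.3 in C57) and Apcs (11.6 to 27.5 in DBA, 5.0 to 30.3 in C57) were below it too, as was the DNA repair nuclease Exo1 (4.0 to 23.0 in DBA, 3.3 to 28.2 in C57). The strains overlapped at each of these sets. Apoa2, an apolipoprotein of high density lipoprotein, was at 51.1 to 57.8 in DBA and 27.4 to 84.9 in C57 by 99648_at (0.22 ± 0.33), and its set 161924_f_at was below the limit, at 11.9 to 88.2 in DBA and 13.0 to 29.8 in C57. The summed level of 7 microglia markers was 3962 to 4455 in DBA and 4810 to 5666 in C57, with 2 of the 7 genes called lower, C1qb and C1qc. No other gene of that list had an unadjusted limma p under 0.05, and 2 of its 9 sets were above 0 (median -0.18). Whole brain cannot tell fewer microglia from less RNA per cell or from a difference of C1qb and C1qc alone. The part of any of these in the Fc receptor values was not tested. Of 5 lymphocyte markers, 3 had a probe set, and those of Cd3e (13.8 to 29.3 in DBA, 15.5 to 27.1 in C57) and Ptprc were dim.

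Markers of other cell types and tissues also moved between the strains. Of 4 tested oligodendrocyte genes 1 was called, Mobp, lower in DBA by 1 of its 4 sets (1371.3 to 1755.4 in DBA and 2304.8 to 3089.9 in C57, -0.84 ± 0.12, limma adjusted p = 0.00416). In that list 3 genes had an unadjusted p under 0.05, 1 of 9 sets was above 0 (median -0.22), and the summed level was 28960 to 34211 in DBA and 30063 to 42441 in C57. Of the 4 liver genes Serpina1b was called higher in DBA (130.6 to 238.3 in DBA, 22.5 to 62.7 in C57, 2.33 ± 0.32, limma adjusted p = 0.00284), while Alb (12.7 to 74.5 in DBA, 10.1 to 83.1 in C57) and Apoa1 (median 13.9 in DBA, 16.5 in C57) were below the brightness limit. The choroid plexus list had 3 of 3 tested sets above 0 (median 0.46) and none called. Its summed level was 3458 to 4652 in DBA and 1135 to 3535 in C57, most of it Ttr, which the liver list also holds (0.85 ± 0.30, limma adjusted p = 0.257). The neuron, astrocyte, vessel wall, blood, pituitary, lymphocyte and sex-linked lists had 0 genes called by limma, with 0, 1, 1, 1, 0, 0 and 0 genes at an unadjusted p under 0.05. The part of these markers in the differences of the interval genes was not tested.

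**Figure D3:**
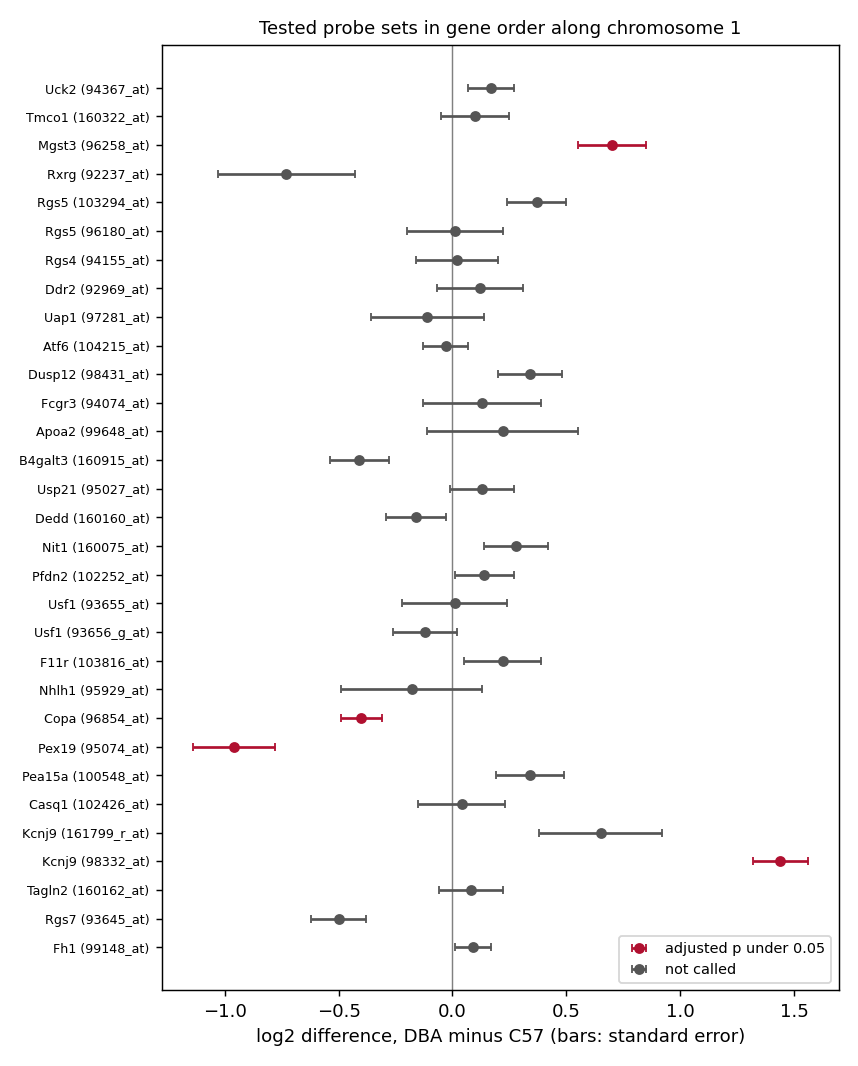
The log2 difference, DBA minus C57, of the 31 tested member probe sets (points) with its standard error (bars), in gene order down the page along chromosome 1. The called sets (red) are Mgst3 near the top and Copa, Pex19 and Kcnj9 further down, and most others lie close to 0.

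The interval was then followed gene by gene, in the order of the RefSeq table. Between the first and the last listed gene lie 244 RefSeq genes, members included, and 23 of those not listed had a probe set (32 sets), of which 13 genes (18 sets) were tested. Of these 18 neighbour sets, 2 (11.1%) were called, both lower in DBA, beside 4.05% of 420 sets on the rest of chromosome 1 and 2.29% of 7915 sets on other chromosomes. Whether these shares differ was not tested.

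The called genes lay in 3 places. At the proximal end, Aldh9a1 and Mgst3 are adjacent protein-coding genes, yet they went opposite ways. Aldh9a1, an aldehyde dehydrogenase, read 82.7, 47.1, 43.2 and 83.4 in DBA (96243_f_at), against 363.8, 350.4, 415.6, 278.6 and 322.4 in C57, with no overlap (-2.49 ± 0.23, limma adjusted p = 0.000244). A suffix of f_at marks a set that can match several similar sequences. Tmco1, on the other side of Aldh9a1, overlapped between the strains as given above.

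Copa and Pex19, with no protein-coding gene between them, were both lower, and Kcnj9 follows after 6 protein-coding genes. Of those 6, Dcaf8, a substrate receptor of a ubiquitin ligase, was at 505.6 to 516.0 in DBA and 523.3 to 611.4 in C57 (-0.18 ± 0.09, limma adjusted p = 0.464), and Igsf8, a membrane protein of the immunoglobulin family, at 1564.1 to 2173.2 in DBA and 1849.2 to 2290.8 in C57 (-0.07 ± 0.12). Pea15a and Casq1 also lie there and were not called. Between the lower pair and the higher Kcnj9 lie measured genes with small or overlapping differences. The next protein-coding gene after Kcnj9 is Kcnj10, one of the members without a probe set.

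Ackr1, a chemokine-binding receptor of red cells and venous endothelium, lies 20 protein-coding genes beyond Kcnj9. Its set 93412_at read 381.4, 440.2, 443.5 and 381.2 in DBA, against 592.4, 570.7, 540.2, 562.0 and 625.2 in C57. The strains did not overlap (-0.49 ± 0.10, limma adjusted p = 0.0272). This call was lost without DBA animal 1, 2 or 4 or C57 animal 1, 2, 4 or 5 (limma adjusted p of 0.0953, 0.0538, 0.0765, 0.0620, 0.0723, 0.0632 and 0.0788), with median centring (0.111) and with no brightness filter (0.0551). Ufc1, the conjugating enzyme of the ubiquitin-like UFM1, also did not overlap, at 743.4 to 796.1 in DBA and 813.7 to 1149.5 in C57, and was not called (-0.37 ± 0.13, limma adjusted p = 0.264).

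**Figure D4:**
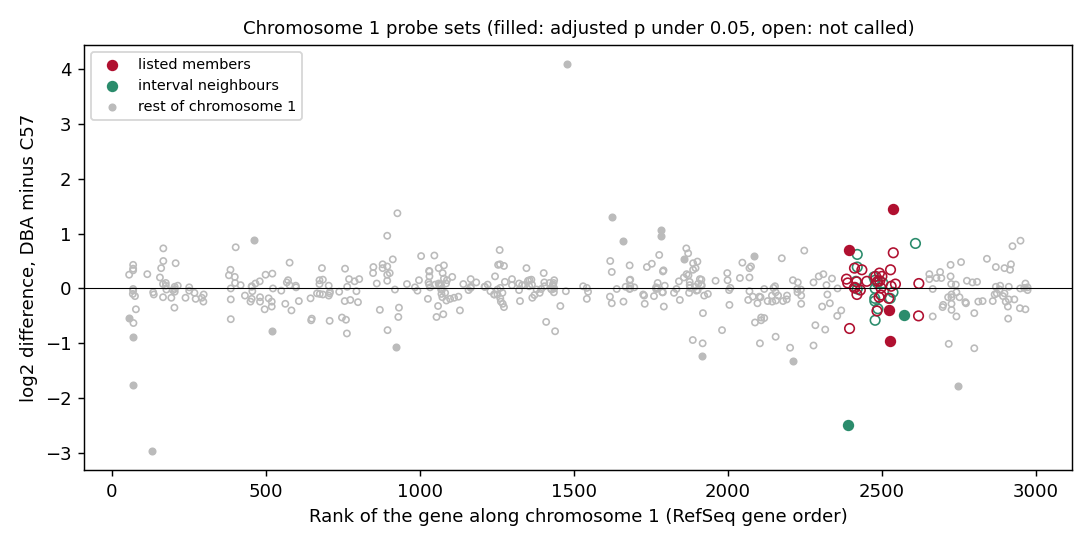
The log2 difference, DBA minus C57, of tested probe sets on chromosome 1 (y axis) against the rank of the gene along the chromosome (x axis), for listed members (red), interval neighbours (green) and the rest of the chromosome (grey). Filled points were called: 4 members and 2 neighbours in the interval, and 17 sets elsewhere on the chromosome.

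Unlisted genes that work with the members were read from 13 lists, 94 tested genes in all. Nearly all lie outside the interval: of the tested genes Sdhc is also an interval neighbour, as are the untested Cd244a, Fcer1a, Fcer1g and Sh2d1b1. Of these, 0 were called higher and 2 lower in DBA, and the median difference of their sets was -0.01. The called genes were Abcd3 and Kcnj11. Abcd3, a fatty acid transporter of the peroxisome membrane and a cargo of the Pex19 carrier, was the 1 called gene of 8 tested in peroxisome biogenesis (median 0.12). It averaged 920 in DBA and 2251 in C57 (2.42-fold lower, -1.27 ± 0.15, limma adjusted p = 0.00106). The next smallest p of that list was that of Pex14, a docking protein, with 0.28 ± 0.11 (limma adjusted p = 0.344).

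Kcnj11, the pore of the ATP-sensitive channel, was the 1 called gene of 6 tested inward rectifier channels (median -0.09). It averaged 224 in DBA and 356 in C57 (-0.68 ± 0.12, limma adjusted p = 0.0135, or 0.0531 without DBA animal 1), so the called channel genes of this family, Kcnj9 and Kcnj11, went opposite ways.

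In the other lists limma called 0 genes, and the member with the smallest p is given. Of 10 RGS genes and partners it was Rgs16 (-0.53 ± 0.13, limma adjusted p = 0.0837), with 2 genes at an unadjusted p under 0.05. Of 8 coatomer and Arf1 genes it was Copg1, another coatomer subunit, at 0.27 ± 0.11, opposite in sign to Copa. Of 5 gamma-secretase genes and substrates it was Psen2 (0.30 ± 0.11). Of 11 glutathione transferases and related enzymes it was Gsto1 (-0.47 ± 0.12), opposite in sign to Mgst3, of 10 unfolded protein response genes Ddit3 (-0.25 ± 0.11), and of 6 planar cell polarity genes Dvl1 (0.33 ± 0.10). Each of these 5 lists had 1 gene at an unadjusted p under 0.05. In 4 lists 0 genes reached that level: of 14 citric acid cycle genes the first was Sdhc (0.21 ± 0.11), of 11 prefoldin and chaperonin genes Tcp1 (0.21 ± 0.15), of 2 Fc receptors and partners Syk (0.24 ± 0.27), and of 3 kynurenine genes Tdo2 (-0.79 ± 0.52). Of the SLAM family 4 genes had a probe set and 0 were bright enough to be tested.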

How the data were processed

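Whole-brain RNA of 4 DBA and 5 C57 mice was read on 1 array per animal. The deposited intensities are linear, with each array scaled to 1 target. How probes were summarised, and by which software, is not given in the sources used here. Groups come from the sample titles. The members, lists and tests were chosen with earlier results of these data known.

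Of 12488 probe sets, 66 controls were left out. The platform annotation gave 1 symbol to 10855, several to 396 and none to 1237, and names were updated through gene identifiers of RefSeq (GRCm38.p6) for 10839. Intensities below the 1st percentile of positive values (1.70, 0.978% of values) were raised to it, log2 was taken, and the dimmest 25% by mean over the 9 arrays (below 35.4) were left out. The strain difference was fitted with limma 3.58.1 (lmFit, then eBayes, in R 4.3.3), with Benjamini-Hochberg adjustment over 9316 probe sets. The fit was also run on simulated data in which probe sets varied independently, which does not check the calls above. Values of all animals are given for members called or at an unadjusted p under 0.05. They are also given for 14 members named by role, except Kcnj10, Ncstn and Nos1ap, which had no probe set. Called neighbours and partners were named, or the smallest p of a list. Alternatives were other scaling, floors, filters, variance models, a block, a smaller adjusted p, and fits with 1 animal less. Figures used matplotlib 3.10.9.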

Additional observations from a re-analysis of the deposited data

Results flagged for a closer look

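Of 66 groups of animals (31 member sets and 2 called neighbour sets, each in both strains), 4 held 1 animal that stood apart by the ratio of its gap to the whole range, where chance gives about 1 in 20. Rgs4 (94155_at) had C57 animal 1 at 1227.3, above the other C57 animals at 703.7 to 788.2 (ratio 0.796). Atf6 (104215_at) had DBA animal 2 at 339.2, below the other DBA animals at 370.1 to 376.3 (ratio 0.840). Apoa2 (99648_at) had DBA animal 4 at 57.8, above the others at 51.1 to 51.2 (ratio 0.984). Usp21 (95027_at) had C57 animal 3 at 322.9, below the others at 406.8 to 423.7 (ratio 0.850). None of the 4 sets was called between strains with all animals, and none was called in the alternative fits run.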

How the results depend on the processing

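Kcnj9 by 98332_at was called in each of the 17 alternative fits of its difference, which ran from 1.38 to 1.51 (limma adjusted p of 4.33e-06 to 0.0171), and no called member changed sign in them. With 1 animal left out, member probe sets called ran from 2 to 3 and member genes called from 2 to 3, neighbour sets called from 1 to 2, partner genes called from 1 to 3, and the median member difference from -0.017, when DBA animal 4 was left out, to 0.125, when C57 animal 1 was. Counts of member sets and of member genes called were 2 with median centring or no filter on dim sets, and 1 with the replicate block or an adjusted p under 0.01. Neighbour sets called were 1 in each of these settings and with the dimmest 50% left out. Partner genes called were 4 with the dimmest 50% left out and 1 with the replicate block or an adjusted p under 0.01. With the dimmest 50% left out, Aldh9a1 itself fell under the filter and was not tested, while Ackr1 was called (limma adjusted p = 0.0119). The filters also set how many probe sets p is adjusted over, and 0.01 is stricter by its construction. For median centring and the block the cause was not tested. Rgs7 passed with the dimmest 50% left out (limma adjusted p = 0.0328) and with a trended, robust variance (0.0273), where 5 members were called.

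Animals of both strains share the numbers 1 to 4 but are different mice. Deviations of same-numbered animals correlated at -0.17 to -0.01. With so few animals this cannot show whether same-numbered arrays were handled together. The replicate block, without C57 animal 5, called 73 of 9316 probe sets, against 233 in the unblocked fit, with limma adjusted p of 0.0515 for Pex19, 0.162 for Mgst3, 0.391 for Copa, 0.340 for Ackr1 and 0.219 for Kcnj11. No detection call was used, so dim sets are bounded only by the brightness limit.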

Other observations

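Neighbours below the brightness limit were not tested. Among them Cd244a, a receptor of natural killer cells, was at 34.2 to 41.5 in DBA and 24.3 to 35.0 in C57 (95380_at). Fcer1g, the signalling chain of Fc receptors, was at 10.5 to 31.7 in DBA and 6.0 to 19.6 in C57 by 160692_at. By its other set, 162181_f_at, it was at 6.7 to 14.2 in DBA and 3.9 to 16.9 in C57. Other dim neighbour sets leaned the other way, among them Sh2d1b1 (mean 32.4 in DBA, 42.6 in C57) and Fcer1a (mean 5.55 in DBA, 8.92 in C57). The strains overlapped at each of these sets.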
